A study of Mus musculus with 58 samples.

Results

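The comparison described here is between mouse embryonic stem (mES) cells that differentiated in retinoic acid (RA) for 4 days with or without DPY30. It holds the 4 Quant-seq libraries of day 4, 2 from auxin-treated and 2 from DMSO-treated cells, out of 22 Quant-seq libraries and 58 libraries in all. Quant-seq counts 3′ ends of polyadenylated RNA, and the reads of each gene's 3′ UTR intervals were summed. All 22 Quant-seq libraries came from 1 line of E14 cells (129/Ola), in which both copies of DPY30 carry the mini auxin-inducible degron (DPY30–mAID) and the plant F-box protein OsTIR1 is expressed from a transgene. Auxin makes OsTIR1 mark the tagged protein for destruction, and DMSO, the solvent, was given to the control cells. Both groups received 1 µM RA without leukaemia inhibitory factor, with fresh RA medium every day. The question behind the time course is whether genes can be switched on without the H3K4me3 mark. Every auxin-treated library carried the degron, so the effects of the compound and of DPY30 loss cannot be told apart, and the labels do not say whether the replicates were separate cultures. The p-values thus measure the spread between these samples, which may be technical. In bulk RNA, fewer cells of a type and less RNA per cell cannot be told apart either.

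DPY30 is a small core subunit of the SET1/COMPASS (MLL) complexes, which place methyl groups on lysine 4 of histone H3 at promoters, and its loss is known to deprive mES cells of H3K4me3. RA binds nuclear receptors, switches on Hox genes in an order along their clusters, and drives mES cells out of pluripotency. In serum culture, RA also yields cells of the primitive endoderm, the extraembryonic lineage that lays down a thick basement membrane rich in laminin and type IV collagen and that later takes up nutrients through endocytosis and lysosomes. These processes order the results below.

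The auxin-treated day 4 libraries held 1611702 and 1686055 counted reads, and the DMSO libraries held 2219362 and 2144479. The levels below are in CPM, here the reads of a gene scaled to the effective size of its library, which is its reads in the tested genes multiplied by its TMM factor, and are in the order replicate 1 and replicate 2. The fold changes are from edgeR's quasi-likelihood test with TMM scaling, in 1 fit of 21 libraries from 11 groups. Levels and fold changes are thus on the same scale. A gene was tested if its mean was at least 10 reads in at least 1 group, which held for 11415 of 20177 genes, so a gene could enter through the group in which it was high. A gene was said to rise or fall with auxin if its Benjamini-Hochberg adjusted p was below 0.05 and its log2 fold change was above 1 or below −1. On day 4, 828 genes (7.25% of those tested) were called, of which 532 rose (4.66%) and 296 fell (2.59%). With unadjusted p-values the shares were 6.54% and 3.33%. At any size of change, 888 genes (7.78%) were higher and 1189 (10.4%) were lower at an adjusted p below 0.05. Genes that rose outnumbered those that fell under each scaling, by different amounts. At a filter of 50 reads in place of 10, 217 rose and 212 fell. With RLE factors 536 rose and 296 fell. With library totals in place of TMM factors the median log2 fold change of all genes moved to 0.18, and 775 genes rose and 208 fell. DESeq2, with its own size factors, called 422 genes (3.7%), 225 higher (1.97%) and 197 lower (1.73%), and 224 and 197 of these were also called by edgeR. Where the higher group averaged 50 reads or more, DESeq2 called 114 of 127 risers and 169 of 186 fallers of the edgeR test. The Dpy30 transcript itself was at 54.4 and 48.1 CPM with auxin and 49.9 and 49.2 CPM with DMSO, which checks nothing, because the degron removes the protein.

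The levels of the called genes are given as a description, since the call itself fixes which group is the lower one, and a gene could pass the filter through the higher group alone. The 532 genes that rose had a median of 4.13 CPM in the DMSO libraries and 14.1 CPM with auxin. Of these, 16 had no read in DMSO. The 296 genes that fell had a median of 31.7 CPM in DMSO and 11.9 CPM with auxin. The libraries of the 2 groups overlapped in none of the called genes, and did not overlap in 60.85% of all tested genes. Their separation in a called gene thus adds nothing to its call. Reads that map to several places of the genome were counted as well. Over 20% of the reads were multi-mapped in 121 of the 532 risers (22.7%), in 24 of the 296 fallers (8.11%) and in 1472 of all tested genes (12.9%).

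**Figure D1:**
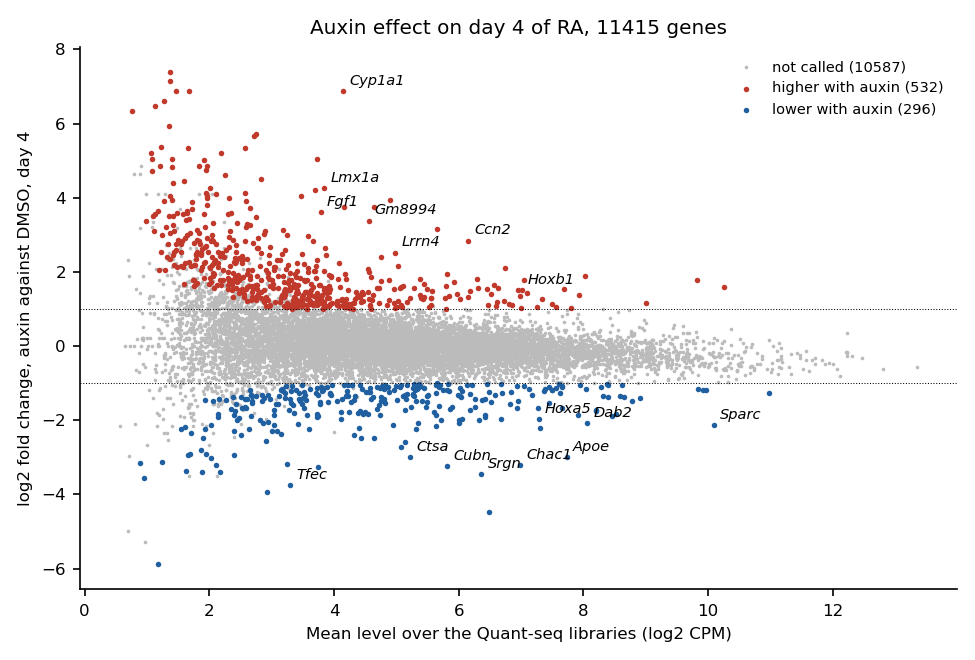
Log2 fold change of auxin against DMSO on day 4 (y axis) against the mean level over the Quant-seq libraries in log2 CPM (x axis), 1 point for each of the 11415 tested genes. Called genes are coloured, 532 above and 296 below 0, and the largest fold changes lie at low levels, where few reads set the values, while Sparc and Dab2 are among the fallers at high levels.

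Among genes with well-placed reads, the rule that chose the 12 largest increases and decreases gave a mixed set of risers. Cyp1a1 (chr9:57687928-57703824, plus strand; all spans of genes are in GRCm38), a cytochrome P450 that oxidises planar aromatic compounds, had 60.3 and 59.4 CPM with auxin and 0.438 and 0.455 CPM with DMSO. It was present in both auxin libraries and nearly absent from both DMSO libraries, with 229 against 2 reads in all, a ratio of 134 with an exact 95% interval of 36.7 to 1113 that covers counting error only. Lmx1a, a LIM homeodomain factor of the roof plate and of midbrain dopaminergic progenitors, had 84.8 and 98.3 CPM against 4.38 and 5.01 CPM, a log2 fold change of 4.27 (SE 0.29, adjusted p = 6.8e-11). Fgf1, a fibroblast growth factor, had 72.5 and 71.1 CPM against 7.01 and 4.55 CPM and rose by 3.62 on the log2 scale. In each of these genes the auxin libraries lay close together and far above the DMSO libraries, as the rule chose the largest changes without overlap. Ccn2, a matrix-associated target of YAP, had 143 and 188 CPM against 30.6 and 15.0 CPM (log2 fold change 2.85, SE 0.58), with the wider spread of the group in DMSO. The other risers of this set were Ly6d (4.51), Gm8994 (3.38), Ccser1 (3.30), Adcy2 (2.98), Ephx2 (2.65), Lrrn4 (2.52), Kctd12 (2.49) and the collagen receptor Ddr2 (2.46), given as log2 fold changes.

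The 12 largest decreases included Srgn, Apoe and Ttr of the endoderm list described below, 2 of the lysosome list (Ctsa and Hexa) and Chac1 of the stress response. Tfec, a relative of the factors that drive lysosomal genes, had 2.67 and 1.53 CPM with auxin and 28.5 and 29.1 CPM with DMSO, and fell by 3.74 on the log2 scale (SE 0.42). Srgn (chr10:62493833-62527451, minus strand), a secretory granule proteoglycan made by parietal endoderm, had 29.9 and 27.1 CPM against 330 and 295 CPM, a log2 fold change of −3.45 (SE 0.19, adjusted p = 7.2e-13). Apoe, the lipid carrier, had 60.3 and 53.2 CPM against 478 and 431 CPM and fell by 3.00. The rule took only genes whose groups did not overlap, so the separation of these groups is no further support. The others described here were Chac1 (−3.21), Ctsa (−3.00), Hexa (−2.58), Bend5 (−2.55), Ttr (−2.48), Pth1r (−2.41), Aqp8 (−2.39) and Tspan8 (−2.24). Fabp3, a fatty acid binding protein left out by the rule because 28.2% of its reads were multi-mapped and named after its values were seen, had 13.9 and 9.21 CPM against 241 and 269 CPM, a log2 fold change of −4.46.

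Genes of the primitive endoderm were lower without DPY30 on day 4. Of 32 genes listed for this lineage 28 were tested, and 18 fell while none rose, against 2.59% of all tested genes that fell. The median log2 fold change was −1.41 over the 28 genes and 0.0022 over all genes tested. DESeq2 called 15 of the 18. Sparc (chr11:55394500-55423183, minus strand), a matrix protein made in large amounts by parietal endoderm, had 901 and 927 CPM with auxin and 3942 and 4037 CPM with DMSO (log2 fold change −2.13, SE 0.11, adjusted p = 1.5e-13). Dab2 (chr15:6299788-6440712, plus strand), the endocytic adaptor that is a standard marker of the lineage, had 223 and 224 CPM against 935 and 941 CPM (−2.07, SE 0.11). In both genes the replicates of a group were nearly equal and the auxin libraries lay far below the DMSO libraries. The basement membrane genes of the list fell as well. Col4a1, a chain of type IV collagen, had 369 and 330 CPM against 1244 and 1257 CPM (−1.84), and its partner Col4a2 fell by 1.47. Lama1 and Lamb1, chains of laminin-111, fell by 1.25 and 1.20, and the third chain, Lamc1, was at 142 and 175 CPM against 287 and 238 CPM with a log2 fold change of −0.72 that did not pass.

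The transcription factors of the lineage did not move by the same amount. Gata4 had 10.1 and 20.0 CPM with auxin and 51.7 and 53.7 CPM with DMSO (log2 fold change −1.80, SE 0.27). Sox17 had 27.2 and 19.4 CPM against 74.0 and 66.4 CPM (−1.59, SE 0.21), and Sox7 fell by 1.58. Gata6, which specifies the lineage in the blastocyst, was at 186 and 184 CPM against 259 and 264 CPM. Its log2 fold change of −0.50 (SE 0.16, adjusted p = 0.027) was short of the fold threshold, and so was that of Foxa2 (−0.87). Genes of the absorptive visceral endoderm were also split. Cubn, the cubilin receptor, fell by 3.24 although 53.3% of its reads were multi-mapped, and Amn, its membrane anchor, fell by 1.72. Lrp2, the megalin receptor that works with them, was at 78.4 and 77.8 CPM against 65.2 and 56.9 CPM with a log2 fold change of 0.35 (adjusted p = 0.28). Ttr, the thyroxine carrier of the yolk sac, had 9.07 and 11.3 CPM against 55.2 and 58.7 CPM. Fst (−1.83), Cited1 (−1.35) and Pdgfra (−1.03) also fell. The calls of Fst and Cited1 were lost when any 1 of the 4 libraries was left out, and that of Pdgfra without auxin replicate 2 or without DMSO replicate 2. Without TMM factors 15 of the list fell.

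Part of this difference was already there on day 2. The 32 genes summed to 1324 and 1342 CPM at 0 h, before RA, of which Apoe made up a mean of 792 CPM. In DMSO the sum went from 2012 and 2105 CPM on day 2 to 9460 and 9522 CPM on day 4. With auxin it went from 1469 and 1458 CPM to 2903 and 2941 CPM. From day 2 to day 4, 24 of the 28 tested genes rose in DMSO (7.79% of all tested genes did) and 13 rose with auxin (6% of all). On day 2 itself 8 of the 28 were lower with auxin and 1 was higher, with a median log2 fold change of −0.50, where 1.88% and 2.92% of all tested genes were. A test of the difference between the effects on the 2 days passed for 3 of the 28, all more negative on day 4, against 0.394% of all tested genes. These were Sparc (−1.63), Col4a1 (−1.82) and Col4a2 (−1.39). Col4a1 was at 129 and 131 CPM on average with auxin and DMSO on day 2, and the groups did not differ by then beyond the threshold. On day 6, which was not tested here and has 1 usable DMSO library, Dab2 was at a mean of 302 CPM with auxin and at 1888 CPM with DMSO, and Srgn at 16.4 and 714 CPM.

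**Figure D2:**
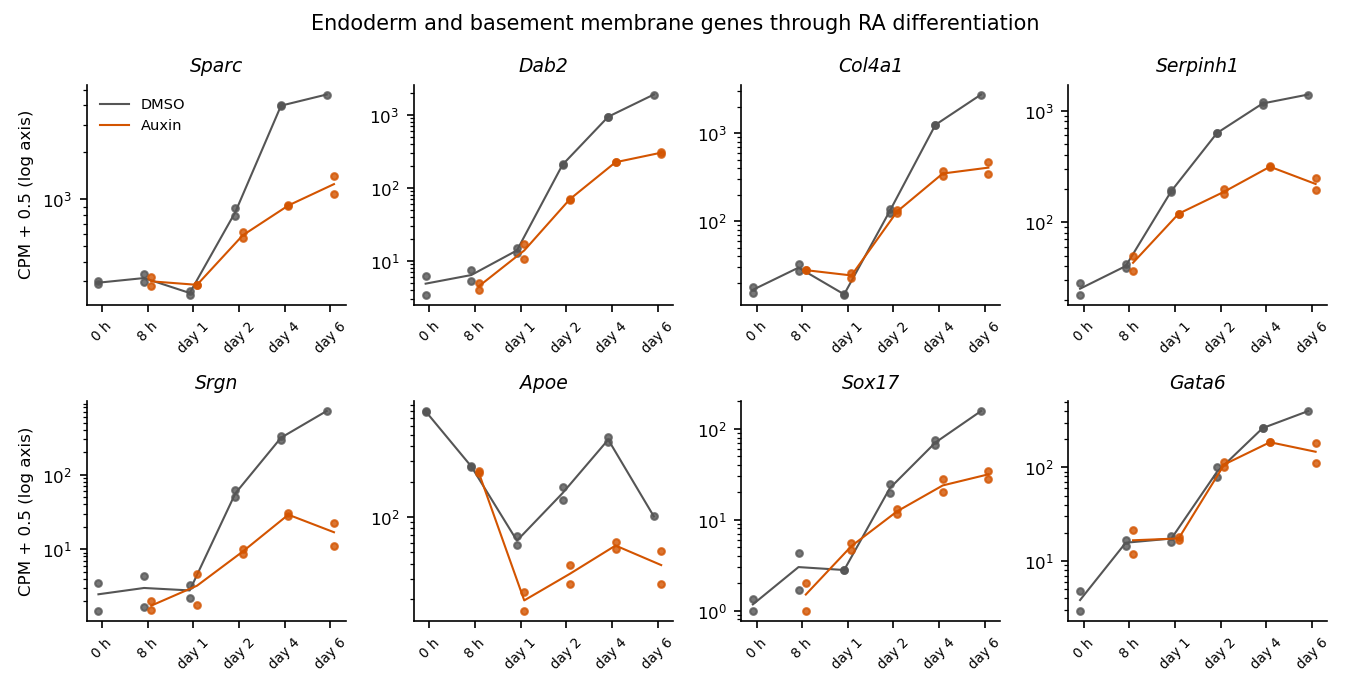
CPM plus 0.5 on a log axis (y) at the time points of RA (x, steps not to scale) for endoderm and basement membrane genes, with a point for each library and a line through the group means, auxin and DMSO in separate colours. Apoe starts at its highest level at 0 h while the others start low, and the DMSO libraries lie above the auxin libraries on day 4, by the least in Gata6.

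Markers of the cell types that such a culture could hold were summed in each library. The 5 markers of mES cells (Pou5f1, Nanog, Zfp42, Esrrb and Sox2) summed to 1116 and 1167 CPM with auxin and 1663 and 1641 CPM with DMSO on day 4, from 4462 and 4203 CPM at 0 h, and none was called. Nearly all reads of Pou5f1 were multi-mapped, so its part of this sum is uncertain. The 5 primitive endoderm markers (Gata4, Gata6, Sox17, Dab2 and Lama1) summed to 542 and 565 CPM against 1564 and 1589 CPM, and 4 of them fell. Of 5 neural markers, which summed to 67.7 and 40.4 CPM against 64.4 and 61.9 CPM, 3 were tested and Sox1 fell. The 4 mesoderm markers summed to 12.3 and 11.8 CPM against 4.82 and 13.2 CPM, and 2 and 1 of them had no read in the auxin libraries and 1 and 1 in the DMSO libraries. The 4 trophectoderm markers summed to 72.0 and 91.1 CPM against 63.5 and 69.2 CPM, of which Krt7 rose, and 5 fibroblast markers to 43.7 and 45.04 CPM against 36.8 and 26.9 CPM, of which Col1a2 rose. The label calls the cells mES cells, and on day 4 the libraries of both groups held mES and endoderm markers together. The part of a change in the mix of cells in the results was not tested.

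Matrix genes were called in both directions. Of 36 listed genes of the extracellular matrix 32 were tested, 7 fell and 2 rose, and 5 of the 7 were Sparc, Col4a1, Col4a2, Lama1 and Lamb1. Of the 25 tested genes outside the endoderm list 2 fell and 2 rose, where 2.59% and 4.66% of all tested genes did. Serpinh1, the collagen chaperone of the endoplasmic reticulum, had 312 and 315 CPM with auxin and 1124 and 1196 CPM with DMSO (log2 fold change −1.89, SE 0.11), and Timp3, an inhibitor of matrix proteases, fell by 1.42. Fibronectin (Fn1) was at 237 and 239 CPM against 218 and 189 CPM, with a log2 fold change of 0.22 and an adjusted p of 0.20. Col1a2 (2.37) and Loxl2 (1.30) rose.

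Genes of the lysosome were lower with auxin as a group, by smaller amounts. Of 30 listed genes 28 were tested, 7 fell, none rose, and 19 were lower at an adjusted p below 0.05 whatever the size, against 10.4% of all tested genes. The median log2 fold change was −0.63. Without TMM factors 4 of them fell. None of these genes was in the endoderm list. Ctsa, the protective protein cathepsin A, had 14.4 and 9.72 CPM with auxin and 104 and 88.7 CPM with DMSO (log2 fold change −3.00, SE 0.27). Hexa (chr9:59539540-59565109, plus strand), the alpha subunit of beta-hexosaminidase, had 16.5 and 15.3 CPM against 103 and 88.3 CPM (−2.58, SE 0.23). Cd63, a tetraspanin of late endosomes, had 92.8 and 110 CPM against 470 and 474 CPM (−2.21, SE 0.16). No auxin library came near a DMSO library in these 3 genes, and the groups overlapped in none of the 296 fallers. Lgmn (−1.62), Neu1 (−1.17), Ctsh (−1.17) and Ctsl (−1.16) also fell. Neu1 fell short of the fold threshold without auxin replicate 2 or DMSO replicate 1, and Neu1 and Ctsl did so without TMM factors. The call of Ctsh was lost when any 1 of the 4 libraries was left out, and 30.9% of the reads of Ctsl were multi-mapped. Lamp1, a major protein of the lysosomal membrane, was at 696 and 650 CPM against 1218 and 1270 CPM with a log2 fold change of −0.89 (adjusted p = 3.9e-07). Between day 2 and day 4, 10 of the 28 rose in DMSO and none with auxin, where 7.79% and 6% of all tested genes did, and the sum of the list was 9410 and 9490 CPM in DMSO and 5868 and 5798 CPM with auxin on day 4. On day 2 the sums were 5852 and 5835 CPM and 5240 and 5347 CPM. The difference between the 2 days passed in 4 genes, Ctsa (−2.08), Hexa (−2.39), Ctsl (−1.19) and Cd63 (−1.03), against 0.394% of all tested genes.

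Targets of the integrated stress response were lower with auxin too. In this response phosphorylated eIF2α slows protein synthesis while the factor ATF4 is made and raises genes for amino acid synthesis and uptake. ATF4 with a C/EBP partner binds a composite element whose core is searched for here as TGATGNAA on both strands. Of 32851 promoters of 250 bases before to 50 bases after the start in the RefSeq annotation of GRCm38.p6, 1304 (3.97%) held these letters. Of the 25 listed genes 22 had a promoter there, 20 of them tested. The letters stood in 6 promoters, and 3 of these genes fell on day 4. The windows of these 3 genes, with the matching letters in capitals, and of Asns, a classical target that did not pass the fold threshold, were as follows on the strand of the gene.
Chac1, chr2:119351038-119351067, plus strand: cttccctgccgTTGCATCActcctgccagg
Trib3, chr2:152344028-152344057, minus strand: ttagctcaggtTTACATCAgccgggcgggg
Nupr1, chr7:126625562-126625591, minus strand: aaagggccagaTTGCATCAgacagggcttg
Asns, chr6:7693214-7693243, minus strand: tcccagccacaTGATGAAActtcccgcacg
The first 3 hold the letters on the opposite strand and Asns on its own strand. A match describes the letters of a window and is not evidence of binding, and a promoter without one says only that the letters are not in that window.

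All 22 genes that had an interval, of 25 listed, were tested. Of these 11 fell and none rose, where 2.59% of all tested genes fell and 4.66% rose. DESeq2 called 11 as well, and the median log2 fold change was −1.08. Chac1, which degrades glutathione, had 2.67 and 4.61 CPM with auxin and 38.1 and 30.5 CPM with DMSO (log2 fold change −3.21, SE 0.28, adjusted p = 2.7e-09). Atf5, a relative of ATF4, had 17.6 and 13.8 CPM against 53.9 and 59.2 CPM (−1.84, SE 0.22). Atf4 itself had 261 and 359 CPM against 726 and 672 CPM (−1.17, SE 0.13). The auxin libraries lay below the DMSO libraries in all 3 genes, as they did in all 296 fallers. Among the transporters, Slc7a5 fell by 1.75 and its heavy chain partner Slc3a2 by 1.40. Among the enzymes, Mthfd2 of mitochondrial folate metabolism fell by 1.48 and Cth of cysteine synthesis by 1.06. Phgdh, of serine synthesis, fell by 1.36, with nearly all of its reads multi-mapped. Trib3 (−1.46), Vldlr (−1.10) and Nupr1 (−2.06) completed the fallers, and the call of Nupr1 was lost without auxin replicate 1 or without DMSO replicate 1. Atf4 fell short of the fold threshold without auxin replicate 1, Cth without auxin replicate 2 or DMSO replicate 1, and Vldlr without replicate 2 of either group, and all 3 did so without TMM factors, where 8 of the list fell. Not every target fell. Psat1 had a log2 fold change of −0.93, Asns one of −0.38, Vegfa one of −0.56, and Ddit4, which inhibits mTORC1, was at 225 and 199 CPM against 161 and 153 CPM (0.43, adjusted p = 0.029).

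Both groups were past the peak of these genes by day 4. Their sum was 3678 and 3386 CPM at 0 h, and in DMSO it was 7172 and 7639 CPM on day 2 and 2951 and 2914 CPM on day 4. With auxin it was 4894 and 4658 CPM and then 1490 and 1632 CPM. From day 2 to day 4, 15 of the 22 genes fell in each group, where 4.7% of all tested genes fell in DMSO and 2.86% with auxin. The difference between the days passed in Chac1 (−2.24) and Atf4 (−1.04), which were lowered more on day 4, and in Atf5 (1.33), which was lowered more on day 2, with a log2 fold change of −3.18 then. On day 6, without a test, the order was turned in some of them, with Chac1 at a mean of 8.94 CPM with auxin and 0.829 CPM with DMSO and Trib3 at 37.97 and 4.56 CPM.

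Targets of the aryl hydrocarbon receptor (AhR), a ligand-activated factor that recognises aromatic compounds, were higher with auxin. Of 13 listed genes 11 were tested, 5 rose, where 4.66% of all tested genes did, and 1 fell, with a median log2 fold change of 1.65. The receptor's core recognition letters, searched as TNGCGTG on both strands, stood in 1664 (5.07%) of the promoter windows and in 1 of the 11 list members with a promoter, Ahrr. The window is shown on the strand of the gene, which matches the searched letters.
Ahrr, chr13:74292343-74292372, minus strand: gggcggggcggcTCGCGTGctggggtgggg
Besides Cyp1a1 there were 3 further genes known as close readouts of the receptor. Cyp1b1 had 13.9 and 14.33 CPM with auxin and 1.31 and 2.27 CPM with DMSO (log2 fold change 2.94, SE 0.47). Ahrr, the repressor that feeds back on the receptor, had 5.33 and 6.65 CPM against 0.438 and 0.455 CPM, 23 against 2 reads and a ratio of 13.5 with an exact 95% interval of 3.33 to 118. Cyp1a2 had 6.93 and 4.09 CPM against 0.438 and 0 CPM, 21 against 1 read and a ratio of 24.6 with an interval of 3.95 to 1016. The rise of the last 2 genes rests on few reads, and DESeq2 gave them adjusted p-values of 0.071 and 0.055. Nqo1, a quinone reductase also driven by NRF2, had 25.6 and 26.6 CPM against 8.32 and 6.83 CPM and rose by 1.77. Tiparp, another usual target, was at 71.5 and 75.2 CPM against 87.6 and 75.1 CPM with a log2 fold change of −0.15 (adjusted p = 0.71). The receptor gene Ahr was at 2.67 and 8.70 CPM against 2.19 and 1.36 CPM (1.65, adjusted p = 0.075) and its partner Arnt at 33.6 and 34.8 CPM against 33.7 and 30.9 CPM. Ugt1a7c fell by 2.00, a call that was lost without auxin replicate 2 or without DMSO replicate 1. The rise was not particular to day 4, as Cyp1a1 was at a mean of 70.8 CPM with auxin and without a read in DMSO on day 2, and at 23.3 and 0.414 CPM on day 6.

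**Figure D3:**
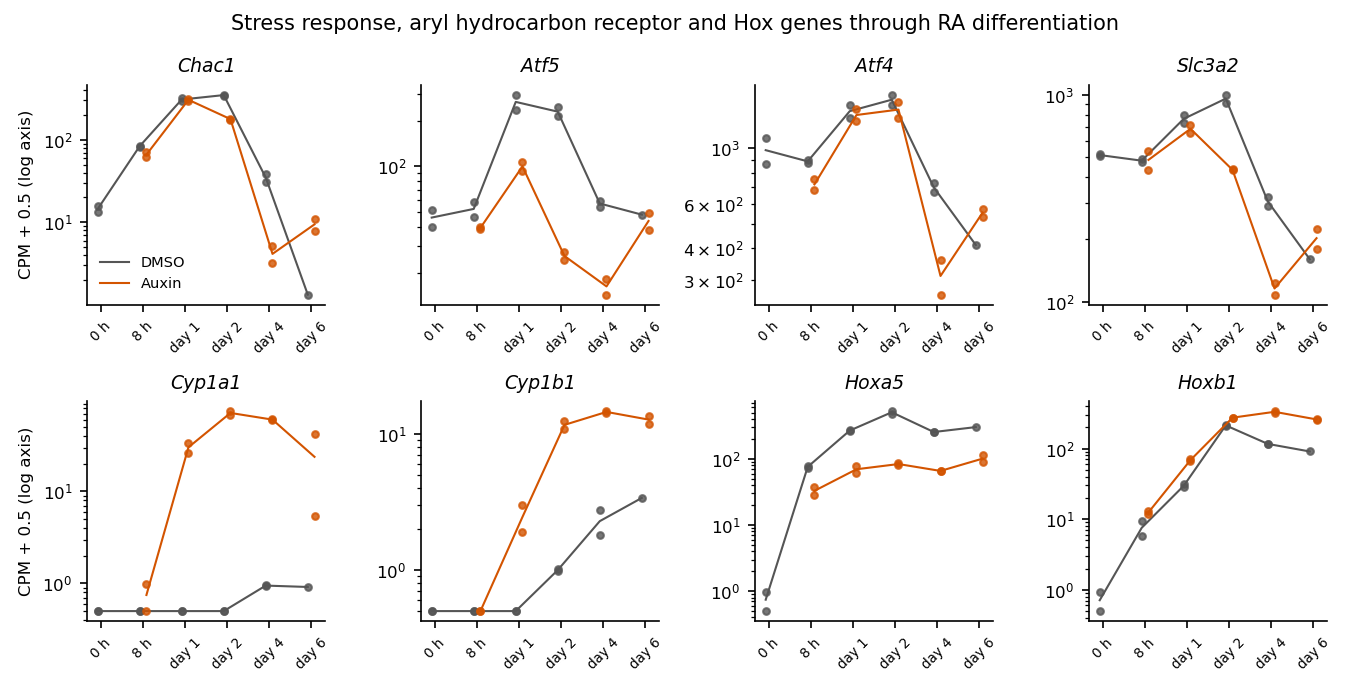
CPM plus 0.5 on a log axis (y) at the time points of RA (x, steps not to scale) for genes of the integrated stress response, of the AhR list and of the Hox clusters, with points for libraries and lines through the group means. Chac1 and Atf5 are highest on day 1 or day 2 and lower on day 4, Cyp1a1 stays near 0 CPM in DMSO and reaches about 60 CPM with auxin on day 4, and Hoxb1 and Hoxa5 part in opposite directions.

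Several Hox genes fell with auxin and Hoxb1 rose. Hoxb1 (chr11:96365752-96368256, plus strand), the first of its cluster to respond to RA, had 322 and 339 CPM with auxin and 116 and 116 CPM with DMSO (log2 fold change 1.51, SE 0.11, adjusted p = 2.4e-10). Hoxa5 had 64.5 and 66.0 CPM against 257 and 252 CPM (−1.96, SE 0.14), and Hoxc9 had 20.3 and 17.9 CPM against 74.9 and 93.3 CPM (−2.14, SE 0.24). The replicates of each group were close together and the 2 directions were clear of the spread. In the Hoxa cluster 2 of 9 tested genes fell (Hoxa5 and Hoxa10, −2.23) and none rose, with a median log2 fold change of −0.36, where 2.59% of all tested genes fell. DESeq2 called 1 faller there. In the Hoxb cluster 2 of 11 fell (Hoxb2, −1.41, and Hoxb9, −1.31) and Hoxb1 alone rose, with a median of −0.63. In the Hoxc and Hoxd clusters 3 of 8 fell (Hoxc9, Hoxc8 and Hoxc4), which became 6 when only the day 4 libraries were fitted and 2 by DESeq2. The median of these 8 genes was −1.26, and 7 of them had a log2 fold change below 0. In 6 both auxin libraries lay below both DMSO libraries, where this held for 3537 of all 11415 tested genes. Several genes of the Hoxa and Hoxb clusters were near the same level in both groups on day 4. Hoxa3 was at 62.4 and 58.3 CPM against 62.6 and 67.3 CPM (−0.11), Hoxa7 at 50.1 and 52.7 CPM against 40.3 and 50.5 CPM (0.18) and Hoxb4 at 46.9 and 54.8 CPM against 58.7 and 56.9 CPM (−0.18). More Hox genes had been low on day 2, when 3, 7 and 5 genes of the 3 lists fell, against 1.88% of all tested genes. The difference between the days passed for Hoxb1 (1.15) and Hoxb4 (1.12), which were both more positive on day 4.

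Of 29 tested retinoid genes, which carry or report the RA signal, 4 rose and none fell, where 4.66% of all tested genes rose, and the median log2 fold change was 0.07. With multi-mapped intervals left out 2 rose. Rxra, the shared partner of the RA receptors, had 48.0 and 45.5 CPM with auxin and 12.7 and 11.4 CPM with DMSO (log2 fold change 1.95, SE 0.32). Cyp26b1, an enzyme that degrades RA, had 467 and 437 CPM against 201 and 245 CPM (1.02, SE 0.16). Its effect had the opposite sign on day 2 (−0.61) and the difference between the days was 1.63. Cyp26a1, the enzyme first induced by RA, was at 102 and 96.2 CPM against 129 and 103 CPM (−0.23, adjusted p = 0.52), and the binding protein gene Crabp2 was at 252 and 282 CPM against 254 and 254 CPM (0.07). Cdx1 (1.95) and Aldh1a3 (1.80) rose, the latter with 99.0% of its reads multi-mapped.

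Pluripotency genes were called in both directions. Among 19 tested genes of naive pluripotency 4 rose and 1 fell, where 4.66% and 2.59% of all tested genes did, with a median log2 fold change of −0.30. Klf2, a factor of the naive state, had 250 and 253 CPM with auxin and 103 and 89.2 CPM with DMSO (log2 fold change 1.39, SE 0.12), against a mean of 769 CPM at 0 h. Tdh, a threonine dehydrogenase of mES cells, rose by 1.44 and was at a mean of 25.7 CPM with auxin, compared with 722 CPM at 0 h. Pecam1 rose by 1.14. Dppa3, also a germ cell gene, had 29 reads with auxin and none with DMSO, at least 11.3-fold higher against a floor of 3 reads over the group, and 41.4% of its reads were multi-mapped. In contrast, Nanog was at 259 and 224 CPM against 268 and 264 CPM (−0.14), Esrrb at 114 and 109 CPM against 167 and 162 CPM (−0.56) and Sox2 at 334 and 350 CPM against 361 and 375 CPM (−0.11). Dppa5a fell by 1.27 with all of its reads multi-mapped. Among 16 core pluripotency genes Tdgf1 rose and Lefty2 fell. Among 14 genes of the formative epiblast Grhl2 rose and Otx2 fell (−1.35). Pou5f1, the gene of OCT4, had a log2 fold change of −0.97 with 99.9% of its reads multi-mapped.

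Genes of the germline and of the 2-cell embryo included several risers from a low level. Of 30 listed genes 21 were tested, 7 rose, where 4.66% of all tested genes did, and none fell, with a median log2 fold change of 0.73. Zscan4c, of a telomere-linked family that marks the 2-cell-like state, had 16.0 and 16.9 CPM with auxin and 0.876 and 1.36 CPM with DMSO (log2 fold change 3.81, SE 0.60). Zscan4d rose by 3.72 and Tcstv1 by 3.48, but 51.9% and 99.6% of their reads were multi-mapped, and with multi-mapped intervals left out 4 of the list rose. The reads of such near-identical copies could be split between them, so the family rather than each copy is the measured unit. Several other genes at the top of the multi-mapped risers were named after their values were seen. Zfp352, a zinc-finger gene of the early embryo, had 33.6 and 40.4 CPM against 0.438 and 0.910 CPM, Gm5662 had 31.5 and 27.6 CPM against 1.31 and 0 CPM, and B020031M17Rik had 77.9 and 64.0 CPM against 4.38 and 3.19 CPM. Gm8300 had 88.5 and 81.9 CPM against 7.88 and 4.55 CPM, with 38.1% of reads multi-mapped. Of the genes with well-placed reads, Tdrd12, a Tudor protein of the piRNA pathway, had 5.33 and 4.09 CPM against 0.438 and 0.455 CPM, 18 against 2 reads. Tex101 rose by 2.83, Tuba3b by 1.09 and Slc25a31 by 1.00. Without auxin replicate 2 the calls of Tex101 and Tuba3b were lost, and without DMSO replicate 2 those of Tuba3b and Slc25a31. Slc25a31 also fell short of the fold threshold without auxin replicate 1. Dazl, an RNA-binding protein of germ cells, was at 148 and 154 CPM against 74.0 and 77.4 CPM, just short of the fold threshold with a log2 fold change of 1.00.

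Multi-mapped risers at high level were of another kind. Mpv17l had 854 and 689 CPM with auxin and 220 and 229 CPM with DMSO, Wdcp had 1102 and 936 CPM against 378 and 299 CPM, and Nup98 had 229 and 167 CPM against 79.3 and 56.4 CPM. More than 96 of every 100 of their reads were multi-mapped, so their log2 fold changes of 1.78, 1.59 and 1.54 describe sequences shared with other places of the genome. All 3 genes were also near or above their auxin level at 0 h, with means of 1204, 1178 and 182 CPM.

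Epithelial and other lineage genes moved in both directions. Among 24 tested genes of trophectoderm and simple epithelium 5 rose and 1 fell, where 4.66% and 2.59% of all tested genes did. Grhl2, a factor of epithelial identity, had 12.3 and 11.8 CPM against 1.31 and 1.36 CPM (log2 fold change 3.10, SE 0.62), and Pkp2, of the desmosome, had 41.6 and 34.8 CPM against 11.8 and 13.7 CPM (1.58, SE 0.24). Krt7 (2.15), Cldn3 (1.41) and Krt19 (1.12) rose and Eomes fell (−1.31). Cdh1, the gene of E-cadherin, was at 292 and 271 CPM against 423 and 479 CPM (−0.68). DESeq2 called 2 of the 5, and the count was 2 without DMSO replicate 2, 3 without auxin replicate 2 and 3 at a filter of 50 reads. Of 15 mesoderm genes 4 fell (Hand2, Foxf1, Eomes and Isl1) and 2 rose (Pecam1 and Gata2), with 1 and 2 by DESeq2. Without auxin replicate 1 the 4 became 2. Of 17 neural progenitor genes Sox1 (−1.27) and Sox9 (−1.10) fell and Notch1 rose (1.16), and of 19 neuronal genes Ina (−1.99) and Isl1 (−1.22) fell and Elavl4 rose (1.45). DESeq2 called 1 faller and no riser in each of these lists. Sox4 and Sox11, at high level in both groups, had log2 fold changes of −0.38 and −0.32.

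Growth and signalling genes gave smaller sets, beside 4.66% of all tested genes that rose and 2.59% that fell. Among 21 imprinted genes Dlk1 (−1.50), Igf2 (−1.17) and Peg10 (−1.04) fell, and Ndn (1.05), Usp29 (1.68) and Plagl1 rose, the last with 24 against 2 reads. Without TMM factors 1 of the 3 fell. Of 19 genes of Nodal and BMP feedback 4 fell, among them Fst, Bmper and Lefty2, which became 1 without auxin replicate 1 and 2 without either DMSO replicate. Of 28 Wnt pathway genes Dkk1 (−1.51), Wnt6 (−1.49), Wls (−1.12) and Fzd7 (−1.06) fell and Axin2 rose (1.56), with 2 fallers without TMM factors. DESeq2 called 3 fallers and no riser in this list. Hspa1a, an inducible heat shock gene, had 24.0 and 24.6 CPM against 1.31 and 4.55 CPM (3.04, SE 0.45), and Hspa1b rose by 2.02. They were the only 2 of 25 chaperone genes that were called, and Hsp90ab1 and Hspa5 had log2 fold changes of −0.26 and −0.29.

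The machinery of H3K4 methylation had no called gene. None of 21 tested subunits of the H3K4 methyltransferase complexes was called by edgeR, with or without adjustment of the p-value, or by DESeq2, and the median log2 fold change was 0.03. At any size, 2 were higher and 3 lower, among the latter Setd1b with 77.9 and 86.0 CPM against 134 and 144 CPM (−0.76). Nor was any of 6 H3K4 demethylases called by these 3 counts, or of 16 enzymes of DNA methylation, 23 of cholesterol synthesis or 81 factors of ribosome biogenesis. In 73 nuclear genes of the respiratory chain there was again no call, with 18 lower and 2 higher at any size, where 10.4% and 7.78% of all tested genes were. Without TMM factors 6 were lower and 6 higher. Of 40 genes of DNA replication none was called by edgeR, with or without adjustment, or by DESeq2, and 10 were lower and 0 higher at any size, with a median log2 fold change of −0.27. Without TMM factors 5 were lower, and the median was −0.09. Cytosolic ribosomal protein genes, a list added after the files were seen, were lower by small amounts. Of 77 tested 66 were lower at an adjusted p below 0.05 and 1 was higher, with a median log2 fold change of −0.48, which was −0.30 without TMM factors, where 36 were lower and 3 higher. Most of them have near-identical copies elsewhere in the genome and are uncertain one by one. Rps3, with few multi-mapped reads, had 578 and 808 CPM against 1333 and 1241 CPM (−0.89), while Rpl4 had a log2 fold change of −0.01. Rps27, the only one called, had 1 against 15 reads. On day 2 the median was −0.04.

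**Figure D4:**
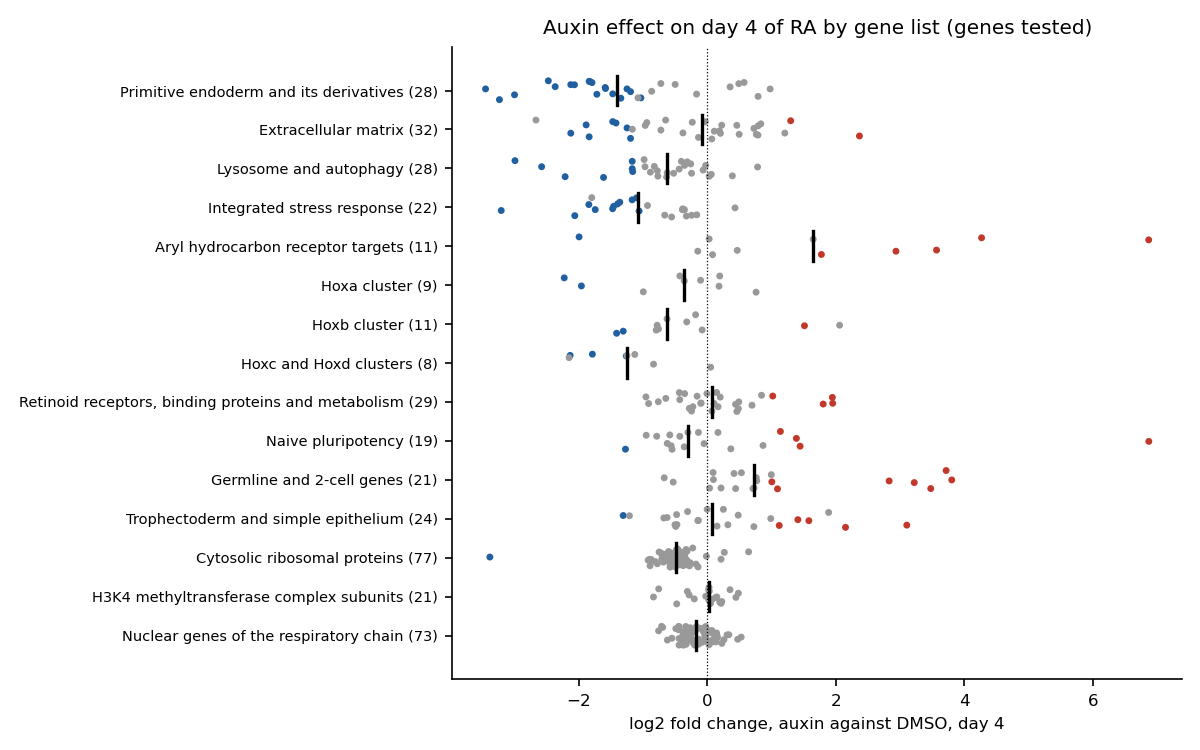
Log2 fold change of auxin against DMSO on day 4 (x axis) for the tested members of each gene list (rows), 1 point per gene with called genes coloured, and the median of each list marked. Primitive endoderm, with a median of −1.41, integrated stress response, −1.08, and lysosome genes, −0.63, lie to the left, AhR targets, 1.65, to the right, and the subunits of the H3K4 methyltransferases, 0.03, near 0.

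Genes raised by day 2 of RA were represented in both directions on day 4. RA came together with the loss of leukaemia inhibitory factor and with time in culture. The terms RA-raised and RA-lowered thus name a contrast and not the effect of RA alone. In DMSO 1854 tested genes (16.2%) were higher on day 2 of RA than at 0 h, and 1158 (10.1%) were lower, 26.4% in all. Of the RA-raised genes, 159 (8.58%) rose and 140 (7.55%) fell with auxin on day 4, with a median log2 fold change of −0.02. Of the RA-lowered genes, 58 (5.01%) rose and 25 (2.16%) fell, and of the 8403 others 3.75% rose and 1.56% fell. The RA-raised genes made up 47.3% of all genes that fell on day 4 and 29.9% of those that rose. The contrast that chose these lists holds no day 4 library, but its filter and spread come from the same fit of all groups. In undifferentiated cells of the same line, where SLAM-seq compared 24 h of auxin with 0 h, 607 genes (6.16% of 9848 tested) were higher and 694 (7.05%) lower by all reads. By T>C conversions, which mark newly made RNA, 0.807% of 6317 tested genes were higher and 2.69% lower, 3.5% in all. Of the lowered genes that were tested here, 33 of 675 (4.89%) fell on day 4 and 18 (2.67%) rose. Of 593 raised genes 32 (5.40%) rose and 17 (2.87%) fell, and of the 8356 others 2.51% rose and 1.80% fell. Among 170 genes with lower newly made RNA 12 (7.06%) fell and 1 rose, against 1.53% and 1.17% of the 6078 genes without such a change.

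The effect of auxin on day 4 had more calls than on the days before. The counts of higher and lower genes were 2 (0.0175%) and 16 (0.14%) at 8 h, 116 (1.02%) and 157 (1.38%) on day 1, and 333 (2.92%) and 215 (1.88%) on day 2. In either direction this was 2.39% of tested genes on day 1, 4.8% on day 2 and 7.25% on day 4. Day 2 and day 4 shared 144 rising genes, which were 43.2% of the risers of day 2 and 27.1% of those of day 4, and 95 falling genes, 44.2% and 32.1%. One gene rose on day 4 after falling on day 2, and 1 did the reverse. The difference between the 2 effects passed the same thresholds in 86 genes (0.753%), 41 more positive on day 4 (0.359%) and 45 more negative (0.394%). Lmx1a was at a mean of 11.6 CPM with auxin and 4.29 CPM with DMSO on day 2, and its difference was 2.84 (SE 0.56). Pth1r, the receptor of parathyroid hormone related peptide in parietal endoderm, was at 9.03 and 6.33 CPM on day 2 and at 14.9 and 14.8 CPM with auxin against 81.9 and 76.9 CPM with DMSO on day 4, and its difference was −2.89 (SE 0.61). Cdkn1c, an imprinted inhibitor of the cell cycle, was at a mean of 575 CPM with auxin and 1221 CPM with DMSO on day 2 and at 377 and 323 against 208 and 222 CPM on day 4, and its difference was 1.79 (SE 0.15). In these 3 genes the effect either grew or changed its sign. The difference of Lmx1a no longer passed without DMSO replicate 1 of day 2, and that of Pth1r without replicate 1 of either day 2 group. By the root mean square of log2 CPM differences over genes, the day 4 auxin libraries were 0.63 from the day 4 DMSO libraries, 0.65 from the day 2 auxin libraries, 0.86 from day 2 DMSO and 0.57 from day 6 auxin. This is a description with no test.

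**Figure D5:**
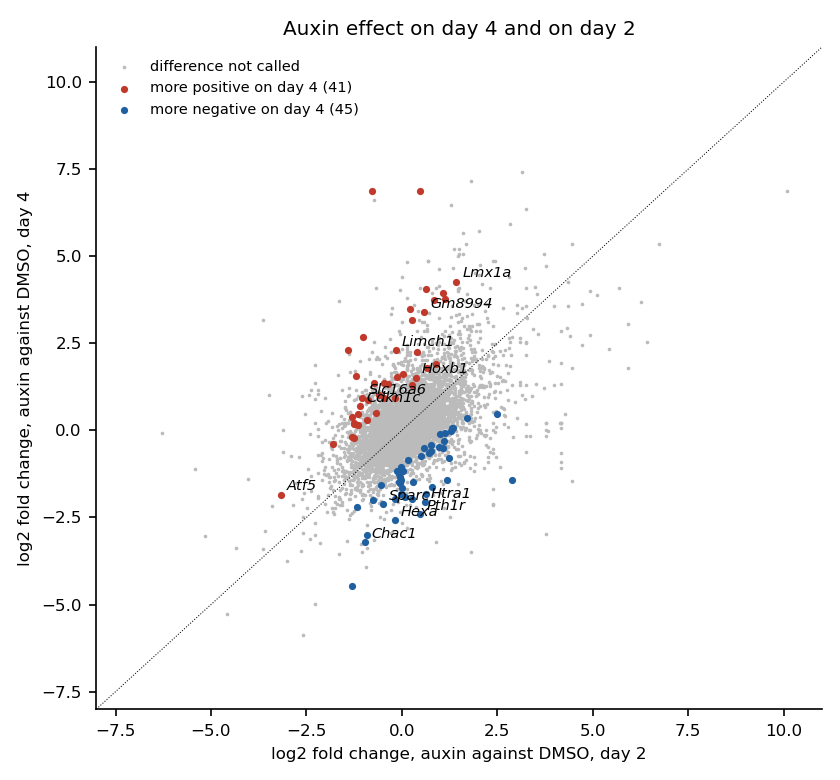
Log2 fold change of auxin against DMSO on day 4 (y axis) against that on day 2 (x axis), 1 point per tested gene, with the line of equal effects. Coloured points are the 41 and 45 genes whose effects differed between the days, such as Lmx1a above the line and Pth1r, Hexa and Sparc below it.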

How the data were processed

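The authors sequenced QuantSeq FWD 3′-end libraries without molecular identifiers, and they deposited raw read counts for 46420 3′ UTR intervals of the GRCm38 (mm10) genome. The file headers name SlamDunk 0.3.4, whereas the submitters' processing notes for these samples name HISAT2 2.2.1, featureCounts, Trim Galore, cutadapt and bcl2fastq. Counts include multi-mapped reads. ERCC spike-ins were not analysed here. Counts were summed per gene (20177 genes, all with coordinates in GENCODE vM21). Both DMSO libraries from day 6 hold the same values and were counted once. CPM values were computed with the TMM-scaled library sizes of the fit. Library totals ranged from 1264241 to 2543632 reads, and intervals cover counting error only.

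The main test was edgeR 4.0.16 in R 4.3.3, and DESeq2 1.42.0 was an alternative, as were RLE factors, library totals, no filter, a stricter filter of 50 reads, day 4 libraries only, multi-mapped intervals left out (over 20%), unadjusted p, the replicate block and leaving out each replicate. The fit was tested on simulated data and recovered 182 of 200 changed genes for the effect on day 4 and 147 of 200 for the difference between days 4 and 2, with 6 and 5 false calls. Each planted change was 2 on the log2 scale, with as many raised as lowered, from levels averaged over all libraries. Recovery of changes nearer the threshold of 1, or from low DMSO levels, was not measured. Tables were made with pandas 2.3.3 (Python 3.11.15) and figures with matplotlib 3.10.9. The members and the 40 gene lists were chosen with earlier results of these data known. Named genes were the 12 largest increases and decreases (50 reads or more on average, under 20% multi-mapped reads, no overlap between groups), the 6 largest differences each way between days 4 and 2 under the same conditions, and list members, called ones first. A few others were picked with their values in view, and some genes that the rule chose are not reported here. Promoter sequences came from RefSeq, GRCm38.p6.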

Additional observations from a re-analysis of the deposited data

Results flagged for a closer look

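The effect of auxin differed between day 4 and day 2 by the interaction term of the edgeR fit. In all, 41 genes were more positive on day 4 and 45 more negative. Those among the named genes and the gene lists are given below, each with its difference, the log2 fold change on day 4 minus that on day 2.

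Genes with an effect that was more positive on day 4 included Lmx1a (2.84), Gm8994 (2.82), Limch1 (2.48), 0610040J01Rik (1.85, not past the threshold in most fits with 1 library left out), the transporter gene Slc16a6 (1.97), and the imprinted genes Cdkn1c (1.79) and Phlda2 (1.42). Among retinoid and Hox genes they were Cyp26b1 (1.63), Hoxb1 (1.15) and Hoxb4 (1.12). Tcstv1 (3.28), Dppa3 (7.67, with no read in the day 4 DMSO libraries, so its size is set by the fit), Atf5 (1.33) and H2-K1 (1.21) completed them. Among genes named after their values were seen they were Gm5039 (2.91), Prex2 (2.87), Gm8300 (2.63) and Mpv17l (1.11), with over 20% of reads multi-mapped in each.

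Genes with an effect that was more negative on day 4 included Pth1r (−2.89), the secreted protease Htra1 (−2.66), Timp3 (−2.60), Ndrg1 (−2.42), Vcan (−2.03) and the basement membrane genes Col4a1 (−1.82), Sparc (−1.63) and Col4a2 (−1.39). In the lysosome list they were Hexa (−2.39), Ctsa (−2.08), Ctsl (−1.19) and Cd63 (−1.03), and in the stress response Chac1 (−2.24) and Atf4 (−1.04). Tcl1 (−1.41) and Fgf4 (−1.20) of the pluripotency lists, Insig1 (−1.34) of cholesterol control and Fzd10 (−1.28) of the Wnt list were the others, with Fabp3 (−3.16), which was named after its values were seen. The effects of Htra1, Timp3, Ndrg1 and Pth1r on day 2 had the opposite sign, with log2 fold changes of 0.60, 1.18, 0.79 and 0.48. So had those of Tcl1 (1.11), Fgf4 (0.77), Insig1 (0.76) and, near 0, Ctsl (0.03).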

How the results depend on the processing

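Among the single genes named, 88 results gave 1162 values under alternatives, of which 1094 kept their direction and their call, 68 lost the call by the adjusted p or the fold and none changed direction. Part of this was fixed in advance. The unadjusted p keeps the fold changes of the main fit and could lose no call. The groups of called day 4 genes did not overlap, so leaving out 1 day 4 library could hardly turn their direction. Of the 68, 12 were under DESeq2, 9 without TMM factors (Cited1, Fst, Ctsh, Pdgfra, Atf4, Vldlr, Cth, Ctsl and Neu1), 1 without a filter, 1 at a filter of 50 reads, 1 with multi-mapped intervals left out, 1 under the replicate block (the difference of 0610040J01Rik) and the others when 1 library was left out. The cause was not tested. On day 4 the genes higher with auxin numbered 225 by DESeq2 and 217 at a stricter filter of 50 reads, which tests fewer genes, and 359 to 377 when 1 library was left out, which leaves fewer samples. The genes lower with auxin numbered 197 by DESeq2, 212 at a filter of 50 reads and 248 to 277 with 1 library left out. The genes more positive on day 4 than on day 2 numbered 23 by DESeq2, 62 without TMM factors, 70 without a filter and 21 to 31 with 1 library left out, and those more negative 25 by DESeq2, 72 without a filter and 25 to 42 with 1 library left out. The first count fell to between 21 and 27 without auxin replicate 1 or DMSO replicate 2 of day 4 or any library of day 2, and the second to between 25 and 28 without replicate 1 of any of the 4 groups. Germline and 2-cell genes that rose numbered 3 at 50 reads, 4 with multi-mapped intervals left out and 5 to 8 with 1 library left out. AhR targets that rose numbered 3 by DESeq2, 2 at 50 reads and 5 to 6. Lysosome genes that fell numbered 4 without TMM factors and 5 to 8. Endoderm genes that fell numbered 15 to 16, and genes of the stress response 9 to 10, with 1 library left out. With the RA-raised genes of day 1 in place of day 2, 89 fell on day 4. By T>C reads in place of all reads in undifferentiated cells, 2 and 2 of the raised and 1 and 12 of the lowered genes rose and fell.

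Replicates with the same number did not deviate together (correlations of −0.003 to −0.047), so the numbers pair nothing, and with the replicate block 526 genes rose and 295 fell and the differences between days numbered 36 and 45. It changed 1 call among the named genes. A count of 0 in a library allows up to 3 reads, so changes below that level were not detectable at this depth.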

Other observations

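More genes were detected in the auxin libraries of day 4. Drawn to an equal depth of 1264241 reads, a comparison chosen after seeing the data, the expected number of genes with a read was 13942 and 13998 with auxin and 12963 and 12908 with DMSO. The values on day 2 were 13669 and 13646 against 12941 and 12888, and at 0 h they were 11768 and 11740. The 50 genes with the most reads took 13.2% and 13.5% of the reads with auxin and 15.5% and 15.6% with DMSO on day 4. None of these values was tested.

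In further lists, beside 4.66% of all tested genes that rose and 2.59% that fell, p53 and its targets gave 2 risers and 1 faller of 27, and Polycomb subunits 1 and 1 of 31. Immediate early genes gave 2 and 0 of 16, interferon and antigen presentation genes 1 and 1 of 15, with B2m, the light chain of class I molecules, at a log2 fold change of −1.42, and hypoxia genes 1 and 1 of 25, with Ndrg1 fallen by 1.63. Actin, SRF and YAP targets gave 2 risers of 25, S100a6 (1.63) and Ccn2, mitosis genes 1 riser of 33, and Meis, Pbx and Cdx genes 1 of 11. Fibroblast genes gave 2 risers of 6. Genes of FGF feedback (17) and of the Myc network (16) gave no call by edgeR or DESeq2, and 1 in each at an unadjusted p below 0.05.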
